A study of Mus musculus with 15 samples.

Results

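The circadian clock genes described here are 10 genes measured on an Affymetrix mouse array: Dbp, Tef, Nr1d2, Per1, Per2, Per3, Cry1, Cry2, Arntl (also called Bmal1) and Clock. They were chosen by gene symbol, with Dbp included because it had one of the largest rises at 12 h, and they are 10 of 12393 named genes on the array. Between them they have 18 of the 22690 probe sets, and all 10 genes passed the filter on low values (7909 of the named genes did). The cells were neural stem cells from the subventricular zone of adult female C57Bl6/J mice aged 6 months, grown as neurospheres (floating clusters of dividing stem and progenitor cells) and used at passages 5 to 7. There were 3 groups of 5 samples each. Undifferentiated cells grew with bFGF and EGF as growth factors, and the other groups were harvested 12 h or 24 h after the growth factors had been withdrawn and the cells put on poly-D-lysine with 5% FCS serum. No genotype or drug differed between the groups. Growth factor loss, serum and poly-D-lysine came together, so their parts cannot be told apart, and the undifferentiated group was taken at 0 h only, so no matched undifferentiated culture at 12 h or 24 h is part of the data.

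The mammalian clock is a loop of transcription and repression that runs in most cells. CLOCK and ARNTL form a heterodimer that switches on the Per and Cry genes through the E-box, a short DNA element, and the PER and CRY proteins return to block that heterodimer. A second loop runs through NR1D2 (REV-ERB beta) and its relative NR1D1, which repress Arntl through the RORE element, and DBP and TEF, activators of the PAR bZIP family, carry the rhythm to output genes through the D-box. A pulse of serum is a common way to set the clocks of cultured cells in phase, and bulk RNA from cells in different phases shows only their mean.

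Because DBP and TEF bind the D-box and CLOCK and ARNTL the E-box, the promoter windows of the members were searched for these elements (both strands, the 250 bases before each RefSeq start, build GRCm38.p6). The motifs were the E-box CACGTG, the D-box TTATGTAA or TTACGTAA, the RORE half-site AGGTCA and the cyclic AMP element TGACGTCA. None of these contains another. Of the members, 9 had at least 1 window, 14 windows in all, and Per2 had none. Per3 was the only member with a D-box, with 2 copies lying 205 and 158 bases before its start. Of 32851 windows of the same length, 0.932% held a D-box and 7 windows (0.0213%) held at least 2. The E-box was found in Per1, Cry1 and Tef and in 6.02% of all windows, the RORE half-site in Nr1d2, Clock and Per1 and in 14.0% of all windows, and the cyclic AMP element in 0 members and 1.55% of all windows. The Dbp window held none of the 4 motifs. A match is a run of letters and not a shown binding site. The Per3 window is printed whole because it holds both D-boxes, and the 60 bases around the match are printed for 1 window each of the E-box genes and of Nr1d2. The sequences are from RefSeq, on build GRCm38.p6, 5′ to 3′ along the strand of the gene, with the motif in capitals. They lie at chr4:151044666-151044915 (minus strand) for Per3, chr11:69098756-69098815 (plus strand) for Per1, chr10:85185082-85185141 (minus strand) for Cry1, chr15:81802519-81802578 (plus strand) for Tef and chr14:18239151-18239210 (minus strand) for Nr1d2.
Per3 D-boxes: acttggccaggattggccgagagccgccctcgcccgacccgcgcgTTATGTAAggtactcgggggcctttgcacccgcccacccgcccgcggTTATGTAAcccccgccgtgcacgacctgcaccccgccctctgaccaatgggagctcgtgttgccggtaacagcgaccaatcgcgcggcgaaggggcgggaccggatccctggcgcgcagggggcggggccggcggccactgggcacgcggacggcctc
Per1 E-box: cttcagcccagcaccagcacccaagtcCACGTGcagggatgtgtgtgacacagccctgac
Cry1 E-box: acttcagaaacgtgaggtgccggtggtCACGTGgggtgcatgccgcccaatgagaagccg
Tef E-box: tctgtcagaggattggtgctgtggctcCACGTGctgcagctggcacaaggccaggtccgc
Nr1d2 RORE half-site: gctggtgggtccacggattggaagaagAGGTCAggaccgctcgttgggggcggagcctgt

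The labels hold a conflict that bears on every result. The title of a sample gives an array code, its description names an array file with a code, and these codes differ in 13 of 15 samples, 8 of which would move to another group if the file codes were right. Groups here are those of the titles and sample sources. Grouped by the file codes instead, limma called 0 of the 10 members in each comparison. The log2 difference of Dbp was then 0.17 ± 0.65 at 12 h and 0.49 ± 0.65 at 24 h (SE). At 24 h against undifferentiated cells all 10 members had a limma adjusted p of 0.9998 by file codes. The share of all tested genes called by file codes is not given here, so this count says nothing particular to the clock genes. The title codes also have a suffix with 3 values, here A, B and C, whose meaning the labels do not give. Suffix A holds 2 undifferentiated arrays, 2 at 12 h and 1 at 24 h, B holds 2 of each group, and C holds 1 undifferentiated array, 1 at 12 h and 2 at 24 h. Array medians ran from 0.947 to 1.5 on the log2 scale, and the arrays of suffix C had the lowest (0.947 to 1.15). 12 h replicates 3 and 4 were the most alike pair within a group (SD of their difference 0.147, against 0.236 for the next pair). All 6 neural stem cell markers looked at lay above the filter, and 0 of 6 microglial, 0 of 5 endothelial and 1 of 4 pericyte and fibroblast markers did (Pdgfrb). Pdgfrb was 3.91-fold higher at 24 h than in undifferentiated cells (limma adjusted p = 7.96e-05) and 2.45-fold higher than at 12 h (adjusted p = 0.0311). Its mean log2 level was -0.24 in undifferentiated cells and 0.43 at 12 h, both below the filter level of 0.512, and 1.72 at 24 h. It thus passed the filter only through its 24 h level, and its folds start from values near background. At 24 h against undifferentiated cells 2 of the 6 stem cell markers were called higher (Sox2 by 1.03 and Msi1 by 1.31 on the log2 scale). Another 2 were called lower (Nes at -2.05 and Egfr at -1.08). The part of these changes in the clock gene results was not tested. Whether the 5 samples of a group are separate cultures is not stated. A p-value here therefore speaks to the spread among these arrays, which may be technical, and their number limits the precision.

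Dbp, the PAR bZIP activator whose rhythm in many tissues has a large amplitude, was the member with the largest difference at both times. On probe set 1438211_s_at its log2 level was 2.93, 2.67, 2.58, 2.25 and 3.03 in undifferentiated cells, 4.52, 4.78, 5.19, 4.99 and 4.98 at 12 h, and 5.21, 3.35, 3.87, 5.05 and 4.58 at 24 h. Every array at 12 h and at 24 h lay above every undifferentiated array, and the 24 h arrays were spread over the widest range. The mean was 2.69 ± 0.31 in undifferentiated cells, 4.89 ± 0.25 at 12 h and 4.41 ± 0.79 at 24 h (SD, n = 5 each). The 12 h difference, which was used to choose Dbp and is given as a description, was 2.20 ± 0.29 (SE), or 4.59-fold. It ranked 8 among the 7909 tested genes, just under Retreg1, an ER-phagy receptor (2.22 ± 0.37), and just above Plec, a cytoskeletal linker (2.19 ± 0.38). At 24 h Dbp was still 3.29-fold above undifferentiated cells (log2 1.72 ± 0.29, limma adjusted p = 0.000714). That comparison shares its undifferentiated arrays with the 12 h comparison, so it is not independent of the choice of Dbp. In bulk RNA, fewer cells with a transcript and less transcript per cell cannot be told apart, and this holds for each gene below.

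Between the 2 times Dbp had a log2 difference of -0.48 ± 0.29 (24 h minus 12 h, limma adjusted p = 0.455, 95% interval -1.10 to 0.14). The arrays did not move together: within code suffixes A, B and C the same difference was 0.56, -1.48 and -0.16. The lowest 24 h arrays, replicates 2 and 3, were the pair with suffix B. Against undifferentiated cells the Dbp difference within A, B and C was 1.85, 2.67 and 1.95 at 12 h and 2.41, 1.19 and 1.79 at 24 h, all above 0. The probe set name ends in s_at, which marks probes that may also match other transcripts. The second probe set, 1418174_at, also stood above the filter and had means of 1.30 ± 0.22 in undifferentiated cells, 3.21 ± 0.32 at 12 h and 2.88 ± 0.47 at 24 h. Its differences from undifferentiated cells were 1.91 at 12 h and 1.57 at 24 h, in the same direction as on the first probe set.

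**Figure D1:**
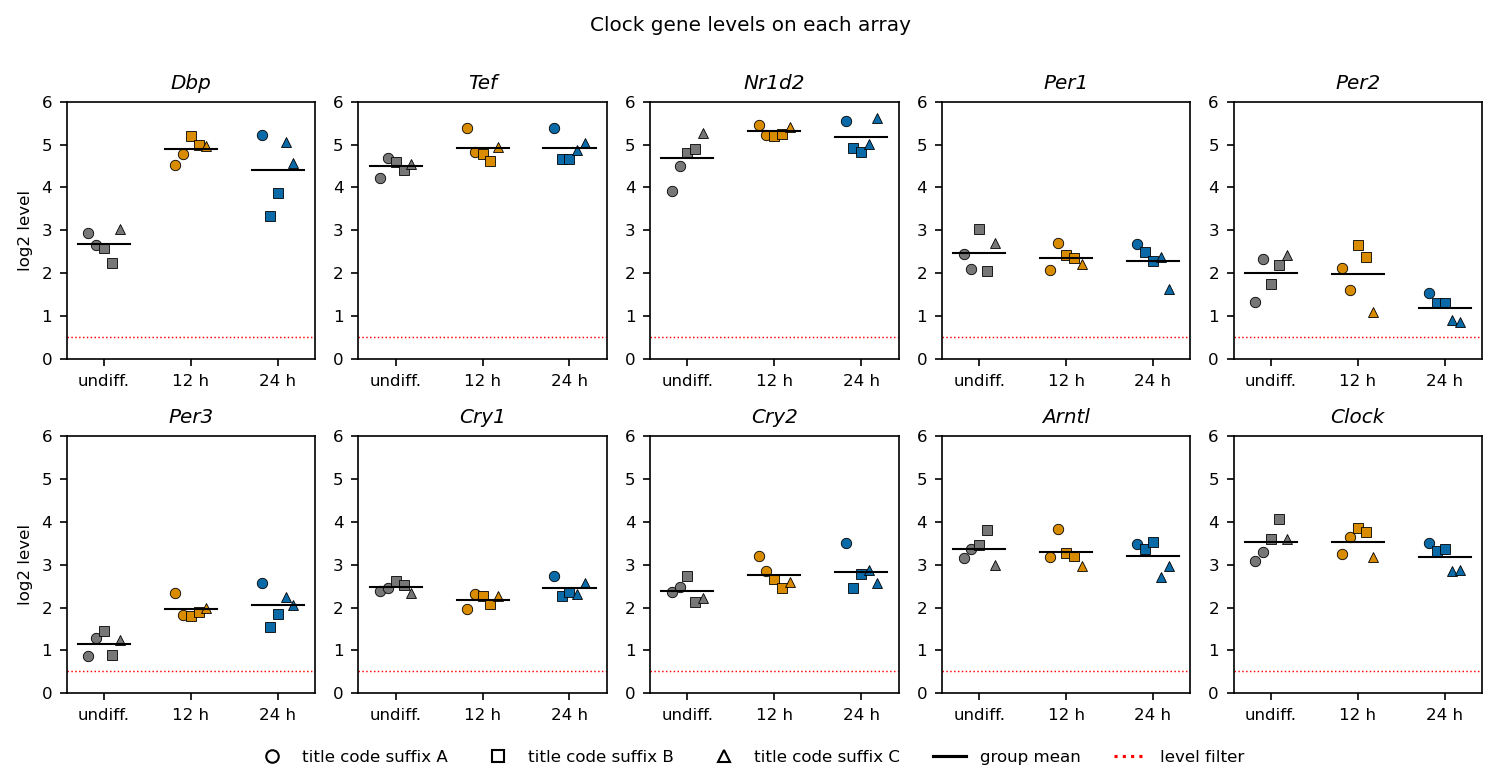
Log2 level of each of the 10 clock genes (vertical axis, 1 panel per gene) on every array of undifferentiated, 12 h and 24 h cells. Points are arrays, with the shape giving the code suffix, bars are group means of 5 arrays and the dotted line is the filter level of 0.512. Dbp and Per3 are the panels in which all 12 h and all 24 h points lie above all undifferentiated points.

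Tef encodes the second PAR bZIP activator among the members. On probe set 1424175_at its log2 level was 4.23, 4.69, 4.59, 4.41 and 4.54 in undifferentiated cells, 5.39, 4.83, 4.77, 4.62 and 4.94 at 12 h, and 5.38, 4.66, 4.66, 4.87 and 5.04 at 24 h. Replicate 1 was the highest array at both times, and the groups overlapped. The differences from undifferentiated cells were 0.42 ± 0.16 at 12 h and 0.43 ± 0.16 at 24 h (SE), the second not called (limma adjusted p = 0.0563, 95% interval 0.08 to 0.78). With the code suffix as a block Tef passed at 24 h (0.46 ± 0.15, limma adjusted p = 0.0252), and it also passed when 12 h replicate 1, 24 h replicate 2 or 24 h replicate 3 was left out (adjusted p = 0.0293, 0.0417 and 0.0448). The 24 h differences within A, B and C were 0.93, 0.16 and 0.41. The other Tef probe sets, 1438033_at and 1450184_s_at, lay below the filter, with 24 h differences of -0.09 and -0.11.

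Nr1d2 encodes REV-ERB beta, a repressor of Arntl. On probe set 1416958_at its log2 level was 3.92, 4.51, 4.81, 4.90 and 5.26 in undifferentiated cells, 5.45, 5.23, 5.21, 5.23 and 5.40 at 12 h, and 5.54, 4.91, 4.82, 5.01 and 5.62 at 24 h. The 12 h arrays were close together and the undifferentiated arrays far apart, and the groups overlapped at both times. The differences from undifferentiated cells were 0.62 ± 0.22 at 12 h and 0.50 ± 0.22 at 24 h (SE), the second not called (limma adjusted p = 0.0872, 95% interval 0.04 to 0.96). Within A, B and C the 24 h difference was 1.33, 0.013 and 0.049, so that nearly all of it lay in suffix A, which has 1 array at 24 h. At 12 h it was not among the members called with the values as deposited, and it was among them with the code suffix as a block, fixed or random, and after quantile normalisation. Without undifferentiated replicate 5 Nr1d2 passed at 24 h (0.65, limma adjusted p = 0.0313). A second probe set, 1416959_at, lay below the filter (24 h difference 0.07).

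The period genes went apart. PER1, PER2 and PER3 share a domain structure, and PER1 and PER2 are needed for the rhythm in mice, while loss of PER3 has mild effects there. Per3, on probe set 1421087_at, had log2 levels of 0.87, 1.30, 1.45, 0.89 and 1.23 in undifferentiated cells, 2.34, 1.83, 1.81, 1.90 and 2.0 at 12 h, and 2.56, 1.54, 1.84, 2.24 and 2.06 at 24 h. As for Dbp, no array at either time fell within the undifferentiated range. The mean was 1.15 ± 0.26 in undifferentiated cells, 1.98 ± 0.21 at 12 h and 2.05 ± 0.39 at 24 h (SD, n = 5 each). Per3 was 1.87-fold above undifferentiated cells at 24 h (log2 0.90 ± 0.18, SE, limma adjusted p = 0.00222), with differences of 1.48, 0.52 and 0.92 within A, B and C. The 12 h difference, as a description, was 0.83 ± 0.18, and the difference between 24 h and 12 h was 0.07 ± 0.18 (limma adjusted p = 0.889, 95% interval -0.32 to 0.46). The other Per3 probe sets, 1421086_at and 1460662_at, lay below the filter, with mean levels from -0.37 to -0.09 in the 3 groups and 24 h differences of -0.07 and 0.04.

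Per2 was the only member called lower at 24 h. On probe set 1417602_at its log2 level was 1.33, 2.34, 1.75, 2.18 and 2.43 in undifferentiated cells, 2.13, 1.62, 2.66, 2.38 and 1.11 at 12 h, and 1.53, 1.30, 1.31, 0.91 and 0.87 at 24 h. Of the 24 h arrays 4 lay below every undifferentiated array, and 24 h replicate 1 lay above undifferentiated replicate 1. The mean was 2.0 ± 0.46 in undifferentiated cells, 1.98 ± 0.62 at 12 h and 1.19 ± 0.28 at 24 h (SD, n = 5 each). At 24 h Per2 fell by 0.82 ± 0.27 on the log2 scale (SE, limma adjusted p = 0.0306), which is 1.76-fold lower than in undifferentiated cells. At 12 h the difference was -0.02 ± 0.27, made of 0.04, 0.55 and -1.32 within A, B and C.

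The Per2 call at 24 h was lost in limma without undifferentiated replicate 2, 4 or 5 or without 24 h replicate 4 or 5, with differences from -0.77 to -0.71 (adjusted p from 0.0673 to 0.0753), and without the 4 arrays of suffix C (-0.52 ± 0.27, adjusted p = 0.204). Within A, B and C the 24 h difference was -0.30, -0.66 and -1.54. The numbers in the title codes also form 6 runs of consecutive values, of which 4 hold 1 undifferentiated and 1 array at 24 h. Per2 was lower at 24 h in 4 of these 4 pairs, with differences from -1.56 to -0.44, and Dbp, Per3 and Tef were higher in 4 of 4. How many of all tested genes had 1 direction in all 4 pairs was not counted, so these counts only describe the members. The labels do not say what a run is. With the runs as a block, an alternative chosen after seeing the data in which 24 h replicate 4 has no partner, Per2 had -0.82 ± 0.31 (adjusted p = 0.0547) while Dbp (1.54) and Per3 (0.86) were called, against 15.3% of tested genes called higher and 23.6% called lower. Against 12 h the difference was -0.79 ± 0.27 and was not called (limma adjusted p = 0.174, 95% interval -1.37 to -0.22). Without 12 h replicate 5, the lowest 12 h array, it was -1.01 and passed (adjusted p = 0.0312). The second probe set, 1417603_at, lay below the filter and had a 24 h difference of -0.24.

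Per1, the period gene that is also an immediate early gene of resetting signals, had overlapping groups throughout. On probe set 1449851_at its log2 level was 2.46, 2.09, 3.03, 2.05 and 2.71 in undifferentiated cells, 2.07, 2.71, 2.43, 2.35 and 2.22 at 12 h, and 2.68, 2.51, 2.29, 2.38 and 1.62 at 24 h. Undifferentiated replicate 3 was the highest array and 24 h replicate 5 the lowest. The difference from undifferentiated cells was -0.11 ± 0.22 at 12 h and -0.17 ± 0.22 at 24 h (SE; limma adjusted p = 0.580 at 24 h, 95% interval -0.63 to 0.29), an interval that spans a fall and a rise.

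CRY1 and CRY2 are the cryptochromes, the repressors that bind CLOCK and ARNTL directly. Cry1, on probe set 1433733_a_at, had log2 levels of 2.39, 2.46, 2.63, 2.52 and 2.35 in undifferentiated cells, 1.96, 2.32, 2.27, 2.08 and 2.27 at 12 h, and 2.73, 2.27, 2.36, 2.31 and 2.56 at 24 h. All 12 h arrays lay below all undifferentiated arrays, by a small margin, and the 24 h arrays overlapped both groups. The 12 h difference, as a description, was -0.29 ± 0.13 (SE). At 24 h it was -0.02 ± 0.13 (limma adjusted p = 0.904, 95% interval -0.29 to 0.25). The difference between 24 h and 12 h was 0.27 ± 0.13 and was not called (adjusted p = 0.335), with 0.59, 0.14 and 0.16 within A, B and C.

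Cry2, on probe set 1426383_at, had log2 levels of 2.35, 2.49, 2.73, 2.12 and 2.23 in undifferentiated cells, 3.20, 2.85, 2.66, 2.45 and 2.60 at 12 h, and 3.51, 2.46, 2.78, 2.86 and 2.56 at 24 h. At 24 h 3 of 5 arrays lay above every undifferentiated array, with replicate 1 the highest. The difference from undifferentiated cells was 0.37 ± 0.20 at 12 h and 0.45 ± 0.20 at 24 h (SE), the second not called (limma adjusted p = 0.0938, 95% interval 0.03 to 0.87). With the code suffix as a block Cry2 passed at 24 h (0.53 ± 0.17, limma adjusted p = 0.0190). Within A, B and C the 24 h difference was 1.09, 0.19 and 0.48.

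Arntl and Clock, the activators at the head of the loop, differed little between the groups. Arntl, on probe set 1425099_a_at, had log2 levels of 3.16, 3.37, 3.46, 3.82 and 2.99 in undifferentiated cells, 3.18, 3.82, 3.27, 3.19 and 2.96 at 12 h, and 3.48, 3.36, 3.53, 2.72 and 2.97 at 24 h. The 3 groups overlapped nearly whole. Its difference from undifferentiated cells was -0.08 ± 0.20 at 12 h and -0.15 ± 0.20 at 24 h (SE; limma adjusted p = 0.600 at 24 h, 95% interval -0.58 to 0.28). Clock, on probe set 1418659_at, had log2 levels of 3.09, 3.29, 3.60, 4.07 and 3.59 in undifferentiated cells, 3.25, 3.65, 3.85, 3.77 and 3.17 at 12 h, and 3.49, 3.32, 3.37, 2.86 and 2.87 at 24 h. The lowest Clock levels were those of 24 h replicates 4 and 5, both with suffix C. These arrays also had the lowest medians of all probe sets (1.04 and 0.947). The 24 h difference of Clock, -0.35 ± 0.20, was not called (limma adjusted p = 0.196, 95% interval -0.77 to 0.08) and was 0.30, -0.49 and -0.73 within A, B and C. With each array centred on its median it was -0.20 (limma adjusted p = 0.354). The second Clock probe set above the filter, 1418660_at, had differences of -0.32 at 12 h and -0.35 at 24 h, so the probe sets gave different pictures at 12 h, where the first had 0.01.

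**Figure D2:**
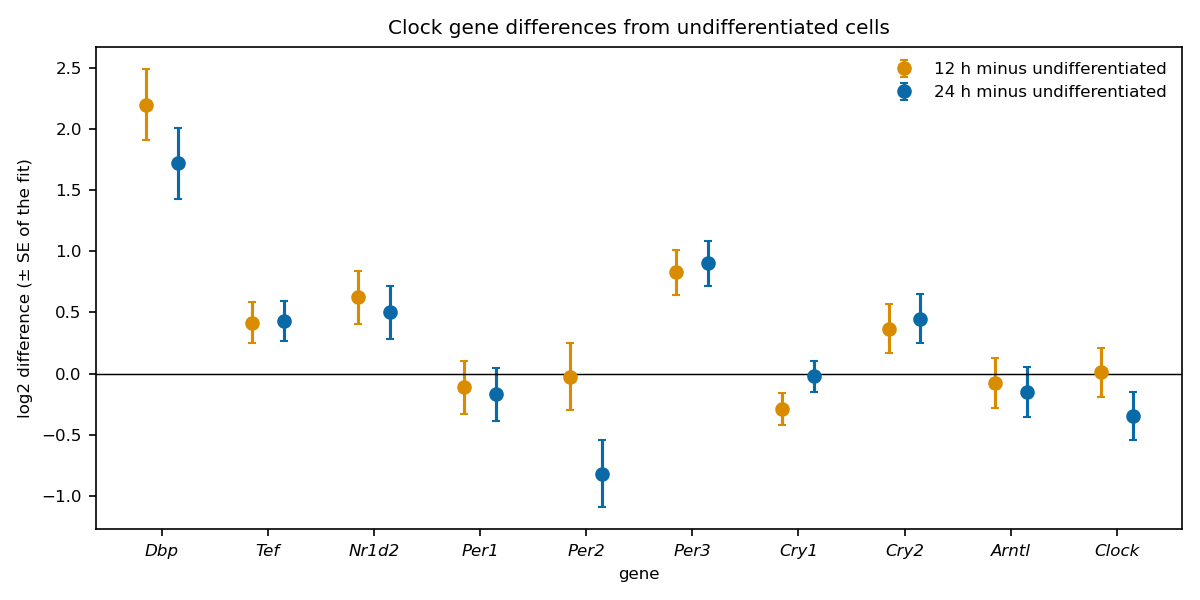
Log2 difference from undifferentiated cells of each clock gene (horizontal axis) at 12 h and at 24 h, with the standard error of the fit as bars (5 arrays per group). Dbp stands highest at 2.20 and 1.72, Per3 follows at 0.83 and 0.90, and Per2 is the lowest at 24 h, at -0.82.

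Over the 10 members, 2 were called higher at 24 h (Dbp and Per3), where 12.7% of the 7909 tested genes were, and 1 was called lower (Per2), where 19.4% were. The groups did not overlap for 2 members that were higher, against 9.04% of tested genes, and for 0 members that were lower, against 16% of tested genes. At an unadjusted p under 0.05, 5 members were higher and 1 lower. The share of all tested genes at that p was not counted. It is larger than the shares called, so these 2 counts are a description and no sign of enrichment. The counts called and the counts without overlap are too near the background to be a result about the 10 genes as a group. The findings are those of single genes. The median 24 h difference of the members was 0.20, against -0.060 over all tested genes. With the code suffix as a block 4 members were called higher (Tef and Cry2 were added) and 1 lower, against 18.1% and 23.7% of tested genes. Scaling moved the balance of all genes: the called genes were 39.6% higher with the deposited values, 56.3% with each array centred on its median and 54.7% after quantile normalisation, and centring shifted the median of all genes to 0.085. With centred arrays Dbp (1.86), Per3 (1.05), Tef (0.58) and Cry2 (0.59) were called higher and Per2 (-0.67) lower at 24 h. Over all tested genes 1431 were called higher and 1110 lower in that setting.

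At 12 h the count, given as a description because the choice of genes used this comparison, was 2 members called higher, against 3.3% of tested genes, and 0 called lower, against 4.56%. With the code suffix as a block 3 members were called higher (Nr1d2 was added), against 7.99%, and 0 lower, against 10.7%. The groups did not overlap for Dbp and Per3, which were higher (3.41% of tested genes), and for Cry1, which was lower (4.74%). Between 24 h and 12 h limma called 0 members, against 0.0632% of tested genes called higher and 0.354% called lower. At an unadjusted p under 0.05 there was 1 member, Per2. The share of all tested genes at that threshold was not counted, so this too is only a description. With the block the count called was also 0, against 0.506% higher and 2.05% lower. The 24 h and 12 h arrays overlapped for all 10 members, against 0.708% of tested genes that were higher without overlap and 2.21% that were lower. The median difference between the times was -0.065 for the members and -0.058 for all tested genes. Within code suffixes 6 of the 10 members had the same sign in A, B and C at 24 h against undifferentiated cells, 6 at 12 h and 3 between the times. The share of all tested genes with the same sign was not counted, so these counts are a description only.

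**Figure D3:**
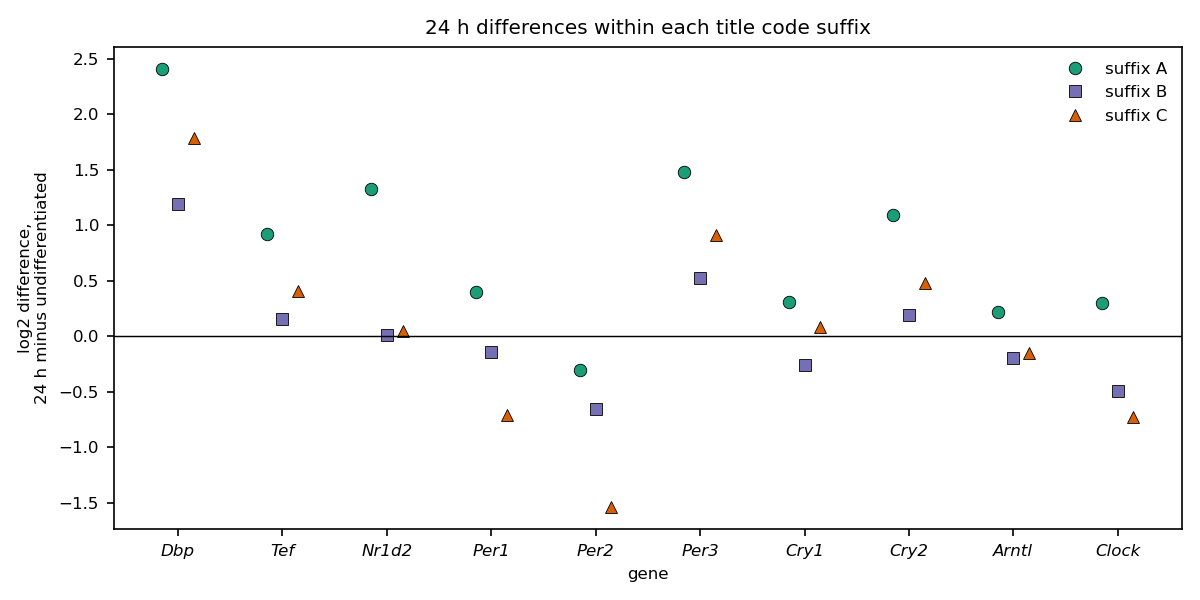
Log2 difference between 24 h and undifferentiated cells of each clock gene (horizontal axis) within code suffixes A, B and C, from 1 to 2 arrays per group and suffix and with no error bars. All points of Dbp and Per3 lie above 0 and all points of Per2 below it, and suffix A gives the highest value for each of the 10 genes.

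A measure of RNA quality and measures of other cell types moved with the groups. The 3'/5' ratio of beta-actin, which rises as RNA or labelling gets worse, was 1.63 to 2.22 in undifferentiated cells, 2.21 to 2.59 at 12 h and 2.23 to 3.21 at 24 h. The same ratio of Gapdh overlapped between the groups, at 0.976 to 1.52, 1.19 to 1.40 and 1.23 to 1.45 in the same order. With the actin ratio as a covariate 0 members were called at 24 h. The share of all tested genes called with it was not counted. The differences were 1.85 ± 0.53 for Dbp (limma adjusted p = 0.0757), 1.0 ± 0.33 for Per3 (adjusted p = 0.0972) and -0.19 ± 0.45 for Per2 (adjusted p = 0.822). The Dbp and Per3 differences were thus as large as without the covariate, and that of Per2 was not. Without it the SEs were 0.29, 0.18 and 0.27, so the fit with it was less precise. The actin ratios of undifferentiated and 24 h arrays did not overlap. Group and ratio can therefore hardly be told apart, here and in later uses of this covariate. The mean log2 level of 3 astrocyte markers, all above the filter, ran from 3.62 to 6.30 in undifferentiated cells, 6.27 to 8.07 at 12 h and 7.23 to 8.60 at 24 h. That of 4 oligodendrocyte markers, also all above it, ran from 3.20 to 4.84, 3.22 to 7.03 and 5.41 to 7.46 in the same order. The part of these cell types in the clock gene differences was not tested.

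Over the 15 arrays the tested genes whose log2 levels were most like those of Dbp were Nudt9, an ADP-ribose pyrophosphatase (Pearson r = 0.939), Tmem230, a membrane protein of vesicles (0.922), Limch1, an actin-associated protein (0.908), Dhrs1, a short-chain dehydrogenase (0.903), and Parp3, an ADP-ribosyltransferase of DNA repair (0.898). These r values are a description, since the arrays share their groups and Dbp was chosen for its group difference. Among the members Per3 came closest (r = 0.862, rank 9 of the tested genes), followed by Tef (0.671), Nr1d2 (0.654) and Cry2 (0.600). The other members had r from -0.33 (Arntl) to -0.10 (Per1). By Spearman correlation Nudt9 and Dhrs1 stayed among the 5 most like Dbp, and Per3 had rank 49. After the group means were taken out the order was another. The 5 most like Dbp were then Tpd52l2 (0.904), Mettl5 (0.820), Telo2 (0.811), Rab21 (0.806) and Ift22 (0.806), Per3 had 0.579 and Arntl, at -0.449, had the lowest value among the members.

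Further genes of the clock were read from lists. Of 11 other core clock genes 9 were on the array and 5 passed the filter, and at 24 h 0 were called higher and 1 lower, against 12.7% and 19.4% of tested genes, a share of the list near the background. The gene was Hlf, the third PAR bZIP activator beside Dbp and Tef. Hlf had log2 levels of 1.74, 1.37, 1.56, 1.09 and 1.20 at 24 h, against 1.90, 1.90, 1.79, 1.98 and 2.12 in undifferentiated cells. All 24 h arrays lay below all undifferentiated arrays. Hlf fell by 0.55 ± 0.14 at 24 h (SE, limma adjusted p = 0.00824), while Dbp rose in the same comparison and Tef was not called. With median centring Hlf was still called (-0.40, adjusted p = 0.0221), and with the actin ratio as a covariate it was not (-0.20, adjusted p = 0.603). At 12 h and between the times 0 of the 5 were called. Bhlhe40, a repressor of the E-box, had a 24 h difference of -0.82 ± 0.34 (limma adjusted p = 0.0708) that passed with the code suffix as a block (-0.78 ± 0.30, adjusted p = 0.0461). It did not pass with median centring (-0.68, adjusted p = 0.0974), after quantile normalisation (-0.63, adjusted p = 0.124) or with the actin ratio (-0.63, adjusted p = 0.547).

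Nr1d1, which encodes REV-ERB alpha, the partner of the Nr1d2 product, lay below the filter with a mean level of 0.264 and was not tested with the others. It was singled out after its values were seen. Its log2 level was 0.80, 0.55, 1.18, 0.26 and 1.12 in undifferentiated cells, -0.14, 0.22, 0.57, 0.54 and 0.02 at 12 h, and 0.03, -0.03, -0.29, -0.28 and -0.58 at 24 h. All 24 h arrays lay below all undifferentiated arrays. Without the filter its 24 h difference was -1.01 ± 0.18 (SE, limma adjusted p = 0.00119), against 0.50 ± 0.22 for Nr1d2 with the filter. These differences had opposite signs, and whether they differ from each other was not tested.

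Of 15 kinases and ubiquitin ligases that modify clock proteins 10 were on the array and all 10 passed the filter. At 24 h 2 were called higher, against 12.7% of tested genes, and 1 lower, against 19.4%, and 0 were called at 12 h or between the times. These shares are near the background and are no result about the list. The casein kinase Csnk1a1, whose family phosphorylates PER proteins, rose by 0.57 ± 0.18 (SE, limma adjusted p = 0.0208). Its levels were 7.50, 7.44, 7.50, 7.79 and 8.20 at 24 h, against 6.84, 7.05, 7.17, 7.10 and 7.41 in undifferentiated cells, with no overlap. With the actin ratio as a covariate its 24 h difference was -0.02. Its second probe set above the filter, 1428537_at, had a 24 h difference of 0.26, and 1451497_at, below the filter, had 0.03. Csnk1d, another PER kinase, rose by 0.39 ± 0.15 (adjusted p = 0.0499) on the probe set with the highest level, while its other 4 probe sets had 24 h differences from -0.57 to 0.03. The ubiquitin ligase subunit Fbxw7 fell by 0.67 ± 0.23 (adjusted p = 0.0367). Under median centring Csnk1a1 stayed called (0.72, adjusted p = 0.0442), while Csnk1d (0.54, adjusted p = 0.0627) and Fbxw7 (-0.52, adjusted p = 0.0799) did not.

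Of 9 clock output genes shared by many tissues 7 were on the array and tested. At 12 h 0 were called higher, against 3.3% of tested genes, and 2 lower, against 4.56%. They were Wee1, the kinase that holds back entry into mitosis, which fell by 1.24 ± 0.34 (SE, limma adjusted p = 0.0379), and Cdkn1a, the inhibitor p21 of cyclin-dependent kinases, which fell by 0.96 ± 0.26 (adjusted p = 0.0362). Neither was called at 12 h with the actin ratio as a covariate (adjusted p = 0.142 and 0.137) or with only the 2 groups compared in the fit (0.0532 and 0.0709), and 0 were called when any of 6 of the 10 arrays of these groups was left out. At 24 h 3 of the 7 were called lower, against 19.4% of tested genes. Wee1 fell by 1.77 ± 0.34 (adjusted p = 0.00170) and Cdkn1a fell by 1.53 ± 0.26 (adjusted p = 0.000827), and the deubiquitinase Usp2 fell by 0.49 ± 0.17 (adjusted p = 0.0315). Usp2 was not called with median centring (-0.35, adjusted p = 0.197), where Wee1 (-1.62) and Cdkn1a (-1.38) were. With the values as deposited and no block 0 output genes were called higher at 24 h, against 12.7% of tested genes, and 0 were called between the times. With the code suffix as a block Tspan4, a tetraspanin, was called higher at 12 h (0.63 ± 0.19, adjusted p = 0.0316) and at 24 h (0.53 ± 0.19, adjusted p = 0.0367), against 0.63 ± 0.36 (adjusted p = 0.280) and 0.79 ± 0.36 (adjusted p = 0.106) without it. Tsc22d3, a glucocorticoid-induced leucine zipper protein, was called higher at 24 h with median centring (0.36, adjusted p = 0.0241) and after quantile normalisation (0.39, adjusted p = 0.0133), against 0.21 (adjusted p = 0.256) with the values as deposited. Wee1 had log2 levels of 1.65, 2.81, 2.74, 1.79 and 1.57 at 24 h, against 3.47, 3.81, 4.08, 3.88 and 4.15 in undifferentiated cells, and all 24 h arrays lay below all undifferentiated arrays. Wee1 and Cdkn1a also answer to the cell cycle and to stress, and the part of these in the falls was not tested. With the actin ratio as a covariate 0 of the 7 were called at 24 h, with Wee1 at -1.79 (adjusted p = 0.112) and Cdkn1a at -1.56 (adjusted p = 0.0864).

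**Figure D4:**
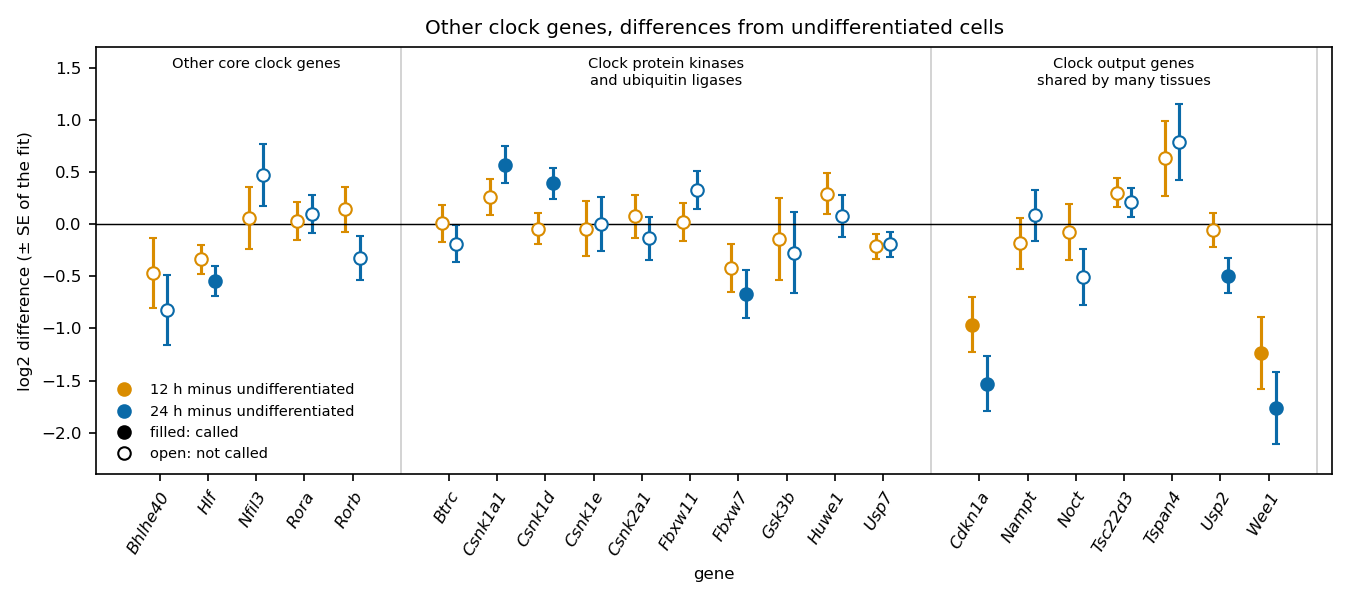
Log2 difference from undifferentiated cells at 12 h and at 24 h of the 22 tested genes of the 3 further clock lists (horizontal axis), with the standard error of the fit as bars (5 arrays per group). Filled points are called at an adjusted p under 0.05. Wee1 and Cdkn1a are filled and below 0 at both times, and Hlf, Usp2 and Fbxw7 at 24 h.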

How the data were processed

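Total RNA of 15 samples was labelled and hybridised to 1 Affymetrix array each, per the labels' protocols. The submitters' processing notes name MAS5; which settings, scaling or offset were used is not given in the sources. The deposited values were read as log10: on average over 15 arrays, spike-in values climbed by 1.07 ± 0.0629 (SD) for each log10 step in concentration. They were multiplied by 3.32 to give log2 values, with no normalisation and no pseudocount. Of the 22626 non-control probe sets, the platform annotation gives 20380 a single gene symbol, 691 several and 1555 none, and those with a single symbol were used. RefSeq assembly GRCm38.p6 holds 20351 of them by Entrez number, and 0 symbols changed. Each gene was represented by its probe set of highest mean. A gene was tested if that mean exceeded the 40th percentile of probe sets (0.512), which left 7909 genes.

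The 3 groups of 5 arrays were fitted together in limma 3.58.1 under R 4.3.3, with a variance trend and Benjamini-Hochberg adjustment over the 7909 genes. Called means an adjusted p under 0.05. The fit was tested on simulated data for 24 h against undifferentiated cells, with 200 changed genes among 7909. It gave back 34.6% of genes changed 1.5-fold, 74.6% changed 2-fold and 96.1% changed 4-fold, with 4.16% false calls. The simulated noise was normal and independent between arrays, and all changes were rises. In the data, arrays of the same code suffix had a correlation of 0.311 in the random block fit. The shares may therefore differ for the real arrays. The members and lists were chosen with earlier results of these data known. Named are all members, every listed gene called in at least 1 comparison, the 5 genes most like Dbp by each of 2 measures, and the genes ranked beside Dbp at 12 h. Bhlhe40, Nr1d1, Tspan4 and Tsc22d3 were added after their values were seen. Marker lists were those for neural stem cells, astrocytes, oligodendrocytes, microglia, endothelial cells, and pericytes and fibroblasts. Alternatives changed the labels, scaling, pseudocount, filter, probe set choice, variance model, samples, blocks and single arrays.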

Additional observations from a re-analysis of the deposited data

How the results depend on the processing

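At 24 h against undifferentiated cells 3 members were called. The count was 6 after quantile normalisation, 5 with median centring, 5 with the code suffix as a block, 5 with it as a random block, 2 with the runs of title codes as a block (chosen after seeing the data), 1 with the 60th percentile filter (8 members tested), 0 with the actin 3'/5' ratio in the model and 0 with groups by file codes. At 12 h it was 2, then 1 with the 60th percentile filter, the mean of probe sets, the actin ratio or suffix C left out, and 0 by file codes. Leaving out single arrays gave 2 to 2 at 12 h, 2 to 4 at 24 h and 0 to 1 between the times. The counts over all tested genes moved too. At 24 h 1003 genes were called higher and 1533 lower with the values as deposited. These were 1585 and 1315 after quantile normalisation, 1431 and 1110 with centring, 1434 and 1874 with the suffix block, and 1211 and 1866 with the run block. For the other settings here no count over all tested genes is given. For the core list (1 at 24 h) the count was 2 without the filter and with either block, 0 with the 60th percentile filter, the actin ratio, the file codes or suffix C left out, and 1 to 2 with single arrays left out. For the kinases and ligases (3 at 24 h) it was 1 with centring or suffix C left out, 0 with the actin ratio or the file codes, and 0 to 3 with single arrays left out. For the output genes it was 2 at 12 h, against 1 with the mean of probe sets, 0 by file codes, with only the 2 groups compared, with the actin ratio or with suffix C left out, and 0 to 2 with single arrays left out. At 24 h it was 3, against 0 by file codes or with the actin ratio, and 2 to 3 with single arrays left out. The cause of these moves was not tested. The stricter filter also leaves fewer genes, and the smaller sets hold fewer arrays.

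Several member differences that were not called changed sign. Between 24 h and 12 h Arntl had 0.0446 after quantile normalisation, 0.0647 with centring, 0.0257 with the suffix block, 0.0130 with the run block, 0.122 with the actin ratio, 0.0910 without suffix C and -0.155 to 0.0619 with single arrays left out. Per1 had 0.0987 by file codes, 0.0829 after quantile normalisation, 0.0797 with centring, 0.104 without suffix C and -0.153 to 0.111 with single arrays left out. Tef had -0.143 with the mean of probe sets, -0.0393 with 12 h replicates 3 and 4 averaged, -0.0002 without suffix C and -0.101 to 0.134 with single arrays left out. Nr1d2 had 0.299 by file codes and 0.0130 with centring. Without single arrays Per3 had -0.0555 to 0.200 and Cry2 -0.0869 to 0.194. By file codes Dbp had 0.323, Per2 0.125 and Clock 0.0183. At 24 h against undifferentiated cells Arntl had 0.0217 after quantile normalisation, 0.282 with the actin ratio and 0.0030 without suffix C. Cry1 had 0.154 by file codes, 0.143 after quantile normalisation, 0.122 with centring, 0.0470 with the actin ratio and -0.0943 to 0.0204 with single arrays left out. Per1 had 0.0093 after quantile normalisation and 0.0846 without suffix C. By file codes Cry2 had -0.0196 and Clock 0.0078 at 24 h, and Per3, which was called otherwise, -0.0279 at 12 h.

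The labels name no pairs of arrays and give no replicate numbers, and the replicate numbers used here only name the arrays in order. Runs of consecutive title codes, whose meaning is not given, served as a block instead, and of the 3 members called at 24 h Per2 was lost (adjusted p = 0.0547). Probe sets near the filter level carry little signal over background.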
